A study of Mus musculus with 9 samples.

Results

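A set of 28 mouse genes is described here by which of their RefSeq transcripts carried most of their RNA in leukemic and in normal marrow progenitors. A gene was included when it had at least 2 listed transcripts and a summed mean of at least 5 FPKM in each of the 3 groups. In addition, the share of 1 transcript had to differ from normal progenitors by at least 25 percentage points, in the same direction, in both leukemic groups. FPKM is the number of fragments per kilobase of transcript and 1 M (mega) fragments, and the share of a transcript is its FPKM divided by the summed FPKM of all transcripts with that gene name. Of 16537 gene names, 3147 had at least 2 transcripts, 1798 of these could meet the rule, and 28 met it (1.56%). The rule reads the leukemic and normal shares themselves, so these shares are given below as a description and without a test. The genes were thus selected on the FPKM of these same libraries.

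All cells were sorted from the bone marrow of FVB/NJ mice, an inbred strain, and each group holds 3 libraries. Early LP are leukemic progenitors of PML-RAR mice in the phase named early. Median LP are leukemic progenitors of mice with the same genotype in the phase named median. HPC are hematopoietic progenitor cells of wild type mice at postnatal day 42. PML-RAR is the fusion of the promyelocytic leukemia protein with retinoic acid receptor alpha that defines acute promyelocytic leukemia. The labels used here do not state the promoter that drives it, the age of the leukemic mice and the markers used for sorting, so genotype, age and sorted population cannot be told apart in any comparison with HPC.

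A mammalian gene can make several mRNAs by starting transcription at different promoters, by joining different exons and by ending at different sites. A change of promoter replaces the first exon and often the beginning of the protein, while skipping of an internal exon removes a stretch from its middle. In blood cells such choices mark lineage and stage. Runx1 is read from a distal and a proximal promoter.

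Each gene below is described by its gained transcript, whose share was higher by the most in both LP groups, and its lost transcript, whose share was lower by the most. In Mapre2 another transcript, NM_001162942, was higher by slightly more in early LP alone. The transcript with the highest share differed from that of HPC in both LP groups in 18 of the 28 genes, against 68 of 1798 genes (3.78%) among all that could meet the rule. A rule that asks for a large share difference favours such a change, so nothing is read from this comparison. In Map3k7 it differed in early LP alone. In 9 genes, among them Pqlc1, Ldb1, Shisa5, Gse1, Hdac7, Mat2b, Mapre2 and Nfatc1, the leading transcript was the same in all 3 groups and its share differed. The set is therefore one of large share differences, and a change of main transcript holds for the 18.

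The sequences that separate the gained from the lost mRNA are shown for genes in which the difference is short or lies at the start. The first set is the protein-coding sequence found in only 1 of the 2 transcripts, in GENCODE M21 models on GRCm38 (mm10), in lower case and 5′ to 3′ on the gene's strand. In Runx1 the lost and gained transcripts open with different start codons and share the rest of the coding sequence.
Runx1 gained NM_001111023, chr16:92695738-92695753, minus strand: atgcgtatccccgtag
Runx1 lost NM_001111021, chr16:92825589-92825646, minus strand: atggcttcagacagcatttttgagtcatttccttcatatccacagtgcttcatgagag
Tsc22d1 gained NM_001177751, chr14:76488659-76488675, plus strand: atgacaaaggctttaag
Tsc22d1 lost NM_009366, chr14:76504717-76504841, plus strand: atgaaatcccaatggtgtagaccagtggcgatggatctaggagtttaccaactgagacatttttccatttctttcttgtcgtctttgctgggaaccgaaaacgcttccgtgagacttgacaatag
Mat2b gained NM_001199274, chr11:40694803-40694832, minus strand: atgcctgaaatgccggaggccatggaacag
Mat2b lost NM_134017, chr11:40692478-40692540, minus strand: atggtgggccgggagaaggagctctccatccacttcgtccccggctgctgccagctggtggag
Map3k7 lost NM_009316, chr4:31994874-31994954, plus strand: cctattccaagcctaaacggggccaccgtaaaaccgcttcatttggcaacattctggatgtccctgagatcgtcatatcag
Ano6 lost NM_001253813, chr15:95830644-95830706, plus strand: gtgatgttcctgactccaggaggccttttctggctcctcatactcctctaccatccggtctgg

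The second set is the 250 bases before the RefSeq start nearest to each transcript (GRCm38.p6), for 3 genes whose gained and lost transcripts begin far apart. Capitals mark a match to 1 of 6 motifs searched on both strands: GATAA (the GATA core), TGTGGT (the RUNX core), TTGCNNAA (C/EBP), GAGGAA (PU.1 and other Ets factors), AGGTCA (a nuclear receptor half-site) and TATAAA (the TATA box).
Runx1 gained NM_001111023, chr16:92697330-92697579, minus strand: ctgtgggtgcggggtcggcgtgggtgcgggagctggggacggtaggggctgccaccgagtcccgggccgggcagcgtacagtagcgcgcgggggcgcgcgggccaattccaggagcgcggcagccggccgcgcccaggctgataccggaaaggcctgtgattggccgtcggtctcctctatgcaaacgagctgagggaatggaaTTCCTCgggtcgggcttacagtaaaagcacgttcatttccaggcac
Runx1 lost NM_001111021, chr16:92826075-92826324, minus strand: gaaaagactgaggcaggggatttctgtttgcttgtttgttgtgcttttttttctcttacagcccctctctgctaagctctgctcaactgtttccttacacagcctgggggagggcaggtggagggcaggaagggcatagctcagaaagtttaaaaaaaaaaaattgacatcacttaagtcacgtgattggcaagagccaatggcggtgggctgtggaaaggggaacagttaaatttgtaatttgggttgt
Tsc22d1 gained NM_001177751, chr14:76488186-76488435, plus strand: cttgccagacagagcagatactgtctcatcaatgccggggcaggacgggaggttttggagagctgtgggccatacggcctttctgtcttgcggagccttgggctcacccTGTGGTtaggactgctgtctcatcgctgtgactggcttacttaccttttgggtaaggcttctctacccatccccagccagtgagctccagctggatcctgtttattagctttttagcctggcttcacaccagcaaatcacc
Tsc22d1 lost NM_009366, chr14:76504260-76504509, plus strand: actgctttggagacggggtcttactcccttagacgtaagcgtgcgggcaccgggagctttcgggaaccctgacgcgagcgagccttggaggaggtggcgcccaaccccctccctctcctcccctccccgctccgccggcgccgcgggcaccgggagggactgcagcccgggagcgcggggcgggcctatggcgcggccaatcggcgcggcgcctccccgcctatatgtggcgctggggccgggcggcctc
Prkd3 gained NM_001171005, chr17:79008506-79008755, minus strand: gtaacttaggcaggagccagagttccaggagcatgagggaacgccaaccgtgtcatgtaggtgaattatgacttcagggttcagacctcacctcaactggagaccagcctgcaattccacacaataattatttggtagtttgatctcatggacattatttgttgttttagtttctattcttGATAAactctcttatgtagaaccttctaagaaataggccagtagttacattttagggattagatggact
Prkd3 lost NM_001171004, chr17:79020817-79021066, minus strand: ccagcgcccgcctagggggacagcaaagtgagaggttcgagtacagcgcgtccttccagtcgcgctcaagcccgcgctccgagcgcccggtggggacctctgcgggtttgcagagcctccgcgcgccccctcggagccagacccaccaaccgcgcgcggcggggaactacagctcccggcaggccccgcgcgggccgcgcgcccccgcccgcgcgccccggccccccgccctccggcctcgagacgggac

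Base composition separated the starts of these 3 genes, in opposite directions. The window of the gained Runx1 transcript had 67.6% G and C and 27 CpG, against 45.6% and 2 CpG in the window of the lost one. Its nearest RefSeq start lies 1204 bases from the first base of the GENCODE model. In Tsc22d1 the gained start had 54.4% and 5 CpG, against 74.0% and 31 CpG at the lost start. In Prkd3 the gained start had 40.8% and 2 CpG, against 77.6% and 38 CpG at the lost start. The median of all 32851 windows in the table was 52.4% and 6 CpG. A start of 19 of the 28 genes was in the promoter table, and in 11 genes both starts were there, apart from each other and within 500 bases of the models. Runx1, at 1204 bases, is not among these 11. In the 11, G and C content was higher at the gained start in 5 and at the lost start in 5, and was equal in Slc35c1. The CpG count was higher at the gained start in Prkag2, Prom1, Ldb1, Trim13, Shisa5, Gse1 and Hdac7. It was higher at the lost start in Tsc22d1, Prkd3, Slc35c1 and Nadk. Neither measure had a direction common to all 11.

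Motif matches were few in the 6 printed windows. GAGGAA stood 46 bases before the gained Runx1 start, and 23.3% of all windows hold it. TGTGGT stood 141 bases before the gained Tsc22d1 start (14% of windows), and GATAA 69 bases before the gained Prkd3 start (22.6%). TTGCNNAA (9.56% of windows), AGGTCA (14%) and TATAAA (12.4%) were absent from these letters. The windows of Ldb1 were searched too and are not printed. There GAGGAA stood 105 bases before the lost start, that of NM_010697, and the gained window held no match.

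**Figure D1:**
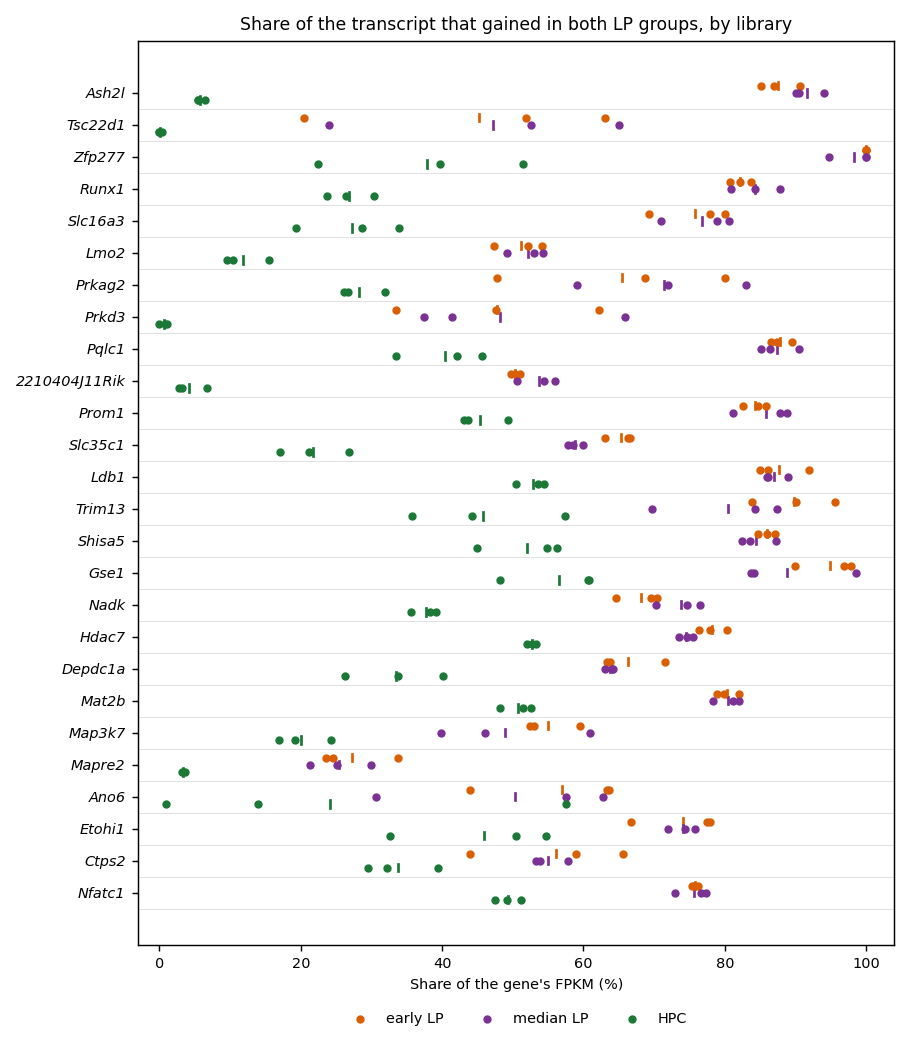
Share of the gained transcript (x axis, % of the gene's FPKM) in each library of 26 of the 28 genes, with early LP, median LP and HPC as coloured points and the group mean as a vertical bar. LP points stand to the right of all HPC points in every gene drawn except Ano6, where HPC 2 stood at 57.6%.

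Among regulators of blood cell transcription, Runx1, Lmo2 and Ldb1 were in the set. Runx1 (mm10, chr16:92601466-92826066), the core-binding factor required for the formation of blood stem cells, moved to its proximal transcript. The share of the proximal transcript NM_001111023 was 82.2, 80.7 and 83.8% in early LP and 80.8, 87.9 and 84.2% in median LP, against 30.3, 23.7 and 26.4% in HPC. Every LP library stood above every HPC library, with a distance of 50.4 points between the nearest. The group share was higher than in HPC by 55.3 points in early LP and 57.4 points in median LP. The distal transcript NM_001111021, which begins 130024 bases upstream by the first bases of the GENCODE models, made up the rest. Both levels differed, since the proximal transcript stood at 16.6 ± 0.397 FPKM in early LP and 17.8 ± 0.933 in median LP, against 4.32 ± 0.622 in HPC (mean ± SD, n = 3 each). The distal one stood at 3.59 ± 0.453 FPKM in early LP and 3.33 ± 0.916 in median LP, against 11.8 ± 0.738 in HPC.

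Lmo2 (mm10, chr2:103957995-103981878), the LIM-only adaptor that bridges DNA-binding proteins in stem and red cell complexes, has 4 listed transcripts. Its leading transcript in HPC, NM_001142337, was close to absent in LP, with a share of 0.0296, 0.0712 and 0.0289% in early LP and 0.821, 0.411 and 0.0324% in median LP, against 52.4, 55.7 and 48.0% in HPC. Each of the 3 HPC libraries stood at least 47.1 points above the highest LP library. NM_001142335, which begins 12134 bases downstream and has a coding sequence of 660 bases against 474, held 54.1, 52.1 and 47.4% in early LP and 54.3, 53.0 and 49.2% in median LP, against 10.4, 9.53 and 15.5% in HPC. The other 2 transcripts differed less. NM_001142336 had group shares of 35.8% in early LP and 30.4% in median LP, against 28.7% in HPC, and NM_008505 had 13% in early LP and 16.9% in median LP, against 7.46% in HPC. NM_001142336 pairs with the same GENCODE model as the lost NM_001142337. That model has 1529 bases, as has NM_001142337, while NM_001142336 has 1605, so the start of NM_001142336 was not established. The near absence in LP is thus shown for NM_001142337 alone, and whether it extends to the upstream start was not tested. Shares of Lmo2 rest on the highest gene counts of the set, up to 8033 estimated counts in a library.

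Ldb1 (mm10, chr19:46032601-46045211), the LIM-domain-binding partner of Lmo2, had the same leading transcript in all groups. NM_001113408 held 91.9, 86.1 and 85.0% in early LP and 88.9, 86.0 and 86.0% in median LP, against 50.4, 53.6 and 54.4% in HPC. Its level was lower in LP, at 26.8 ± 1.32 FPKM in early LP and 24.6 ± 1.60 in median LP, against 58.5 ± 9.91 in HPC (mean ± SD, n = 3 each). The lost transcript NM_010697 stood at 3.85 ± 1.39 FPKM in early LP and 3.66 ± 0.331 in median LP, against 52.0 ± 5.59 in HPC, so the share of the gained one was higher while its level was not. The gained mRNA begins 5590 bases upstream of the lost one and has 108 more coding bases.

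Nfatc1 (mm10, chr18:80606205-80713071), the calcineurin-dependent transcription factor, was the gene with the smallest qualifying difference. NM_016791 held 75.6, 76.2 and 75.4% in early LP and 77.3, 72.9 and 76.6% in median LP, against 51.1, 49.2 and 47.5% in HPC. Its gained and lost mRNAs share their first base and differ in their last exon. The LP values lie within a few points of each other and stand clear of HPC.

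Tsc22d1 (mm10, chr14:76415821-76507766), a leucine zipper protein of the TGF-beta-responsive TSC22 family, had the second largest difference. The lost transcript NM_009366 held 10.1, 26.6 and 56.4% in early LP and 20.9, 26.6 and 38.1% in median LP, against 96.1, 95.5 and 97.2% in HPC. Its share thus covered a wide range in LP while all HPC libraries stood within a narrow one. The gained transcript NM_001177751 held 63.1, 51.9 and 20.5% in early LP and 65.1, 52.6 and 23.9% in median LP, against 0.373, 0.00394 and 0% in HPC. Library 3 was the lowest of its group for the gained transcript in both LP groups. The third transcript, NM_207652, made up group shares of 23.6% in early LP and 22.4% in median LP, against 3.54% in HPC.

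Chromatin proteins were led by Ash2l (mm10, chr8:25816870-25847670), a core subunit of the complexes that methylate histone H3 on lysine 4. It had the largest difference of all 1798 genes. NM_001080793 held 87.0, 85.2 and 90.6% in early LP and 94.0, 90.1 and 90.6% in median LP, against 5.48, 5.44 and 6.41% in HPC. The nearest LP and HPC libraries stood 78.8 points apart. Its level was 71.1 ± 4.31 FPKM in early LP and 75.6 ± 8.94 in median LP, against 2.14 ± 0.397 in HPC (mean ± SD, n = 3 each). The lost NM_011791 stood at 10.02 ± 2.04 FPKM in early LP and 6.85 ± 1.24 in median LP, against 34.7 ± 2.81 in HPC, so the levels of the pair differed in opposite directions. The gained mRNA begins 6907 bases upstream of the lost one, and its coding sequence is 267 bases shorter (1602 against 1869).

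Hdac7 (mm10, chr15:97784365-97844502), a class IIa histone deacetylase, lists 8 transcripts. NM_001204275, which begins 12535 bases upstream of the gained NM_019572, held 0.186, 0 and 3.74% in early LP and 0% in each median LP library, against 34.2, 31.7 and 29.4% in HPC. It was thus at 0 or close to it in every LP library. NM_019572 led in all groups with 76.4, 77.9 and 80.3% in early LP and 75.5, 74.7 and 73.5% in median LP, against 52.1, 52.7 and 53.2% in HPC. Gse1 (mm10, chr8:120488866-120589075), a coiled-coil protein, was led by NM_001145896 in all groups, with 97.9, 90.0 and 96.8% in early LP and 98.6, 83.7 and 84.1% in median LP, against 48.2, 60.8 and 60.7% in HPC. Its lost mRNA NM_198671 begins 48982 bases upstream. Both genes lie in loci shared with another gene, Slc48a1 and Gins2, whose reads could have been split with theirs.

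Zfp277 (mm10, chr12:40315046-40445790), a zinc finger protein, had 1 transcript in nearly all LP libraries. NM_172575 held 99.9975, 99.9944 and 99.9971% in early LP and 94.7, 100 and 100% in median LP, against 51.5, 39.8 and 22.4% in HPC. The HPC libraries were spread widely, and the nearest still stood 43.2 points below the LP libraries. Both mRNAs begin in the same first exon, and the gained one has 378 more coding bases.

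**Figure D2:**
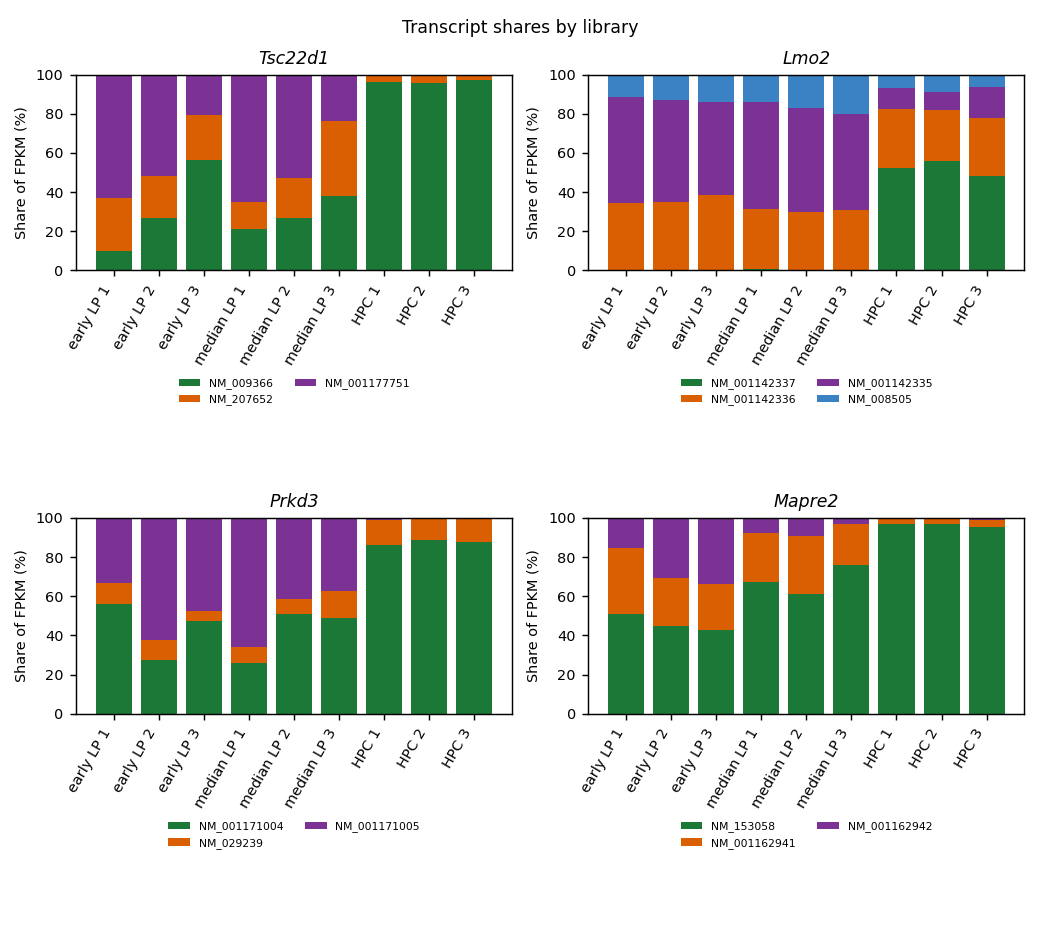
Share of each transcript (stacked, % of the gene's FPKM) in the 9 libraries for Tsc22d1, Lmo2, Prkd3 and Mapre2. NM_001142337 of Lmo2 fills 48.0 to 55.7% of each HPC bar and under 1% of each LP bar, and the Tsc22d1 bars vary most within the LP groups.

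Several enzymes of small-molecule metabolism were in the set. Nadk (mm10, chr4:155562392-155591001), the kinase that makes NADP from NAD, moved between 2 mRNAs with the same coding sequence. NM_138671 held 69.5, 64.6 and 70.4% in early LP and 76.5, 74.7 and 70.3% in median LP, against 38.3, 35.6 and 39.1% in HPC. Mat2b (mm10, chr11:40679314-40695203), the regulatory subunit of methionine adenosyltransferase, was led by NM_001199274 in all groups, with 78.9, 79.9 and 82% in early LP and 78.3, 81.2 and 82% in median LP, against 52.5, 51.5 and 48.1% in HPC. Its LP libraries were close together, and all stood above HPC by at least 25.8 points. The gained and the lost Mat2b mRNA open with the 2 different coding starts printed above. Ctps2, a CTP synthase, was just inside the threshold, and its locus is shared with Rbbp7, Reps2, Syap1 and Txlng. Its lost transcript NM_001168568 held 36.4, 25.8 and 49.1% in early LP and 38.8, 29.8 and 31.2% in median LP, against 68.3, 64.4 and 58.9% in HPC.

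Protein kinase genes in the set were Prkag2, Prkd3 and Map3k7. Prkag2 (mm10, chr5:24862735-25100642) encodes a regulatory gamma subunit of the energy sensor AMPK. Its long transcript NM_145401 held 5.28, 6.87 and 5.17% in early LP and 3.04, 7.22 and 9.58% in median LP, against 54.8, 51.9 and 62.2% in HPC. It had the widest separation of starts, since the gained NM_001170556 begins 192173 bases downstream and its coding sequence has 978 bases against 1698. NM_001170556 held 47.7, 68.6 and 80.1% in early LP and 59.1, 83.1 and 72.0% in median LP, against 26.1, 31.9 and 26.6% in HPC. NM_001170555, which pairs with the same GENCODE model, had group shares of 29.1% in early LP and 22.3% in median LP, against 15.3% in HPC. By library it held 47.0, 24.5 and 14.8% in early LP and 37.8, 9.71 and 18.5% in median LP, against 19.0, 16.1 and 11.2% in HPC. Within each LP group it was highest where the gained share was lowest. The SD of the gained share was 16.4 points in early LP and 12 points in median LP, against 3.22 points in HPC.

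Prkd3 (mm10, chr17:78949405-79020816), a diacylglycerol-responsive kinase of the protein kinase D family, gained a transcript that was barely present in HPC. NM_001171005 held 33.5, 62.2 and 47.6% in early LP and 65.9, 41.4 and 37.4% in median LP, against 1.07, 0.827 and 0% in HPC. It begins 12311 bases downstream of the lost NM_001171004, at the start with few CpG printed above. The SD within a group was 14.4 points in early LP and 15.4 points in median LP, against 0.559 points in HPC. Even so, the lowest LP library exceeded every HPC library by 32.4 points.

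Map3k7 (mm10, chr4:31964107-32023466), the kinase TAK1 of the interleukin-1 and TGF-beta pathways, differed by the 81-base exon printed above. NM_172688, which lacks the exon, held 53.0, 52.4 and 59.5% in early LP and 46.0, 39.8 and 60.9% in median LP, against 24.2, 16.9 and 19.1% in HPC. Each LP library thus stood above all HPC libraries. The shorter mRNA led in early LP, with a group share of 54.9%, and not in median LP, with 48.8%. Both mRNAs were otherwise alike, with first bases 23 apart.

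**Figure D3:**
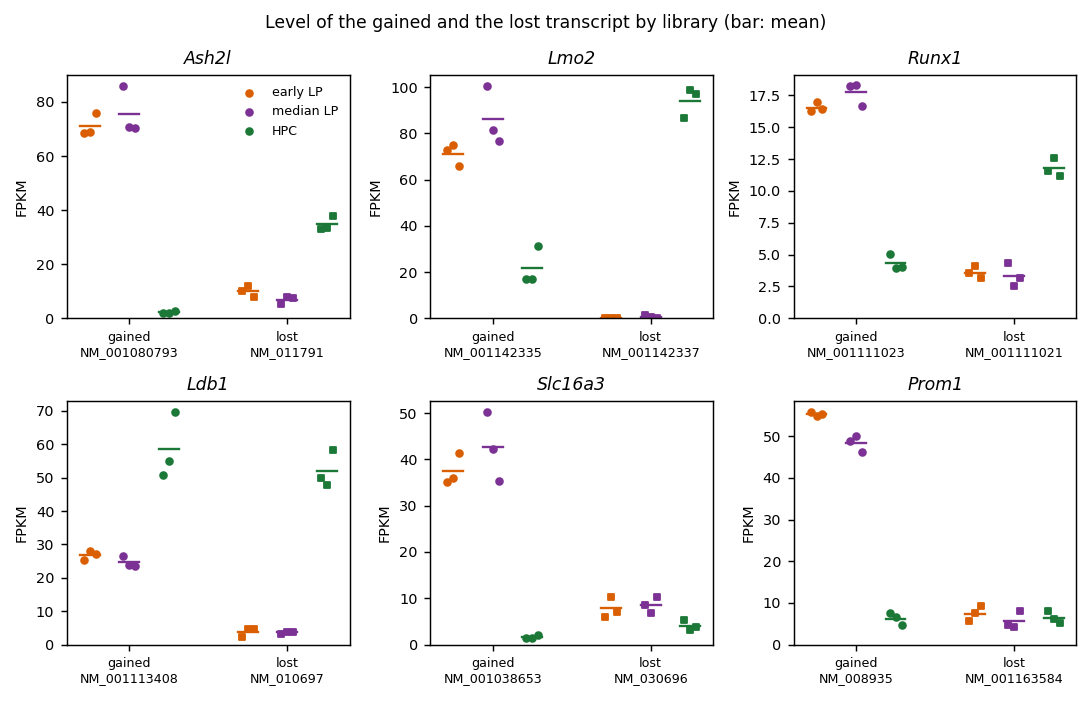
FPKM (y axis) of the gained and the lost transcript in each library for 6 genes, with early LP, median LP and HPC as coloured points and the mean as a bar. The lost Lmo2 and Ldb1 transcripts stand far lower in LP than in HPC, while in Slc16a3 and Prom1 the gained transcript is the one that differs by more.

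Membrane proteins were the largest remaining group. Slc16a3 (mm10, chr11:120948484-120959000), the lactate exporter MCT4, kept its coding sequence while its first exon differed. NM_001038653 held 77.9, 69.3 and 80.0% in early LP and 78.9, 80.6 and 71.0% in median LP, against 19.4, 28.6 and 33.9% in HPC. The lost NM_030696 held 13.1, 19.9 and 13.8% in early LP and 13.5, 13 and 20.7% in median LP, against 74.2, 63.8 and 62.6% in HPC. For the lost transcript, LP and HPC libraries stood 41.9 points apart at the nearest. The gained transcript stood at 37.5 ± 3.39 FPKM in early LP and 42.6 ± 7.49 in median LP, against 1.60 ± 0.357 in HPC (mean ± SD, n = 3 each). The lost one stood at 7.80 ± 2.27 FPKM in early LP and 8.57 ± 1.73 in median LP, against 4.04 ± 1.03 in HPC, so both means were higher in LP. The gene had as few as 271 estimated counts in a library, which limits the precision of its HPC shares.

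Prom1 (mm10, chr5:43993622-44101736), the cholesterol-binding protein known as CD133, had an almost even pair of transcripts in HPC. NM_008935 held 85.8, 84.7 and 82.6% in early LP and 87.8, 88.8 and 81.1% in median LP, against 43.6, 49.4 and 43.1% in HPC. Its level was 55.3 ± 0.525 FPKM in early LP and 48.4 ± 2.05 in median LP, against 6.22 ± 1.44 in HPC (mean ± SD, n = 3 each), while the lost NM_001163584 stood at 7.44 ± 1.73 FPKM in early LP and 5.56 ± 2.08 in median LP, against 6.40 ± 1.39 in HPC. The gained mRNA holds 93 coding bases that the lost one lacks, and begins 6913 bases upstream. The other 4 transcripts of the gene had group shares of at most 4.2% in any group.

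Slc35c1 (mm10, chr2:92452765-92460518), the Golgi GDP-fucose transporter, moved to NM_145832, which held 63.1, 66.3 and 66.5% in early LP and 59.9, 57.8 and 58.6% in median LP, against 26.8, 21.2 and 17.1% in HPC. This was 1 of 3 genes in which the libraries of median LP and early LP did not overlap. The lost mRNA NM_211358 carries 39 more coding bases at its start. Shisa5 (mm10, chr9:109038627-109057766), an endoplasmic reticulum protein induced by p53, kept NM_025858 in the lead with 85.9, 84.7 and 87.0% in early LP and 87.2, 82.5 and 83.6% in median LP, against 56.2, 54.8 and 44.9% in HPC. Pqlc1 (mm10, chr18:80255245-80292724), a PQ-loop transporter-like protein, did so with NM_001164420, which held 89.5, 86.6 and 87.4% in early LP and 85.1, 86.3 and 90.5% in median LP, against 45.6, 33.5 and 42.1% in HPC. Another Pqlc1 mRNA, NM_001164421, was listed at 0 in all 6 LP libraries and held 23.6, 8.73 and 19.9% in HPC 1, 2 and 3.

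Ano6, the calcium-activated phospholipid scramblase TMEM16F, is named because its libraries overlap. NM_175344, which lacks the 63-base exon printed above, held 63.6, 63.4 and 43.9% in early LP and 57.5, 30.6 and 62.8% in median LP, against 0.900, 57.6 and 14% in HPC. HPC 2 alone stood within the LP range, and the SD of the 3 HPC values was 29.7 points. Without HPC 1 the smaller group difference was 14.6 points and without HPC 2 it was 43.1 points, against 26.9 points with all libraries.

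The rest of the set has mixed roles. Trim13 (mm10, chr14:61598226-61682373), a ubiquitin ligase of the endoplasmic reticulum, had the fewest counts, down to 228 estimated counts in a library. NM_023233 held 90.0, 83.9 and 95.6% in early LP and 84.3, 87.4 and 69.7% in median LP, against 35.8, 44.2 and 57.3% in HPC. LP and HPC stood 12.4 points apart at the nearest, and the locus is shared with Dleu2 and Kcnrg. Depdc1a (mm10, chr3:159495433-159529955), a DEP domain protein of dividing cells, moved to NM_001172093 with 63.8, 71.6 and 63.4% in early LP and 63.0, 64.2 and 64.1% in median LP, against 26.3, 33.8 and 40.2% in HPC. That mRNA lacks 831 coding bases of the lost NM_001172092. In the predicted gene 2210404J11Rik, NM_001034891 held 49.7, 51.0 and 50.4% in early LP and 54.4, 50.6 and 56.0% in median LP, against 6.73, 3.12 and 2.78% in HPC. Etohi1, just inside the threshold, ended at another last exon, and NM_001177399 held 66.8, 77.6 and 77.9% in early LP and 74.4, 75.8 and 71.9% in median LP, against 54.7, 50.5 and 32.6% in HPC. With shares of estimated counts in place of FPKM, its smaller group difference was 13.6 points, against 26.9 points here, which is below the threshold.

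Across the 28 genes, the shares of the lead transcript, the one with the largest smaller-of-both difference, did not overlap between HPC and either LP group in 27 (22.5% of all 1798 genes). Taken singly, each LP group stood clear of HPC in 27 of the 28 and in 33.7% of all genes. The rule used this contrast, so nothing is read from the comparison. The median distance between the nearest LP and HPC libraries was 28.4 points, a value that the rule sets in part. The median SD of the lead share within a group was 3.30 points. The median difference from HPC was 40.8 points in early LP and 35.1 points in median LP. Over all 1798 genes, the median of the smaller difference was 1.84 points. Just inside the threshold of 25 points were Etohi1 (26.9 points), Ctps2 (26.5) and Nfatc1 (26.4), and just outside were Isg20 (24.9), Osbpl1a (24.9) and Fbxo6 (24.5).

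**Figure D4:**
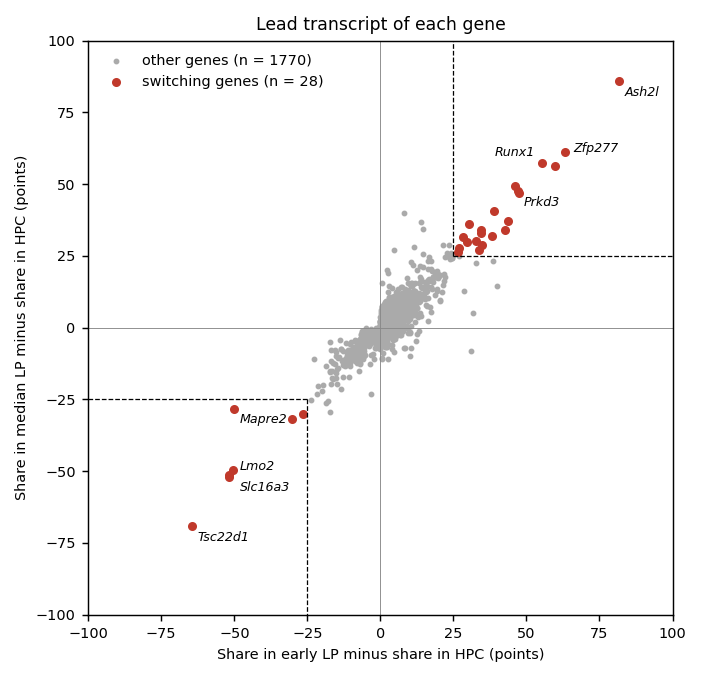
Difference in share of each gene's lead transcript from HPC, in percentage points, for early LP (x axis) and median LP (y axis), in the 28 switching genes and the other 1770 genes. Dashed lines mark 25 points, and since both axes use the same HPC libraries, the spread along the diagonal is not a measure of agreement.

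The difference between the gained and the lost mRNA was most often at the start. In 20 of the 28 genes (71.4%) the first exons did not overlap, against 403 of 1227 genes (32.8%) that could meet the rule and had a comparable pair of models. The last exons were separate in Etohi1 and Nfatc1 (7.14%), against 165 genes (13.4%). In 6 genes (21.4%), among them Ano6, Ctps2, Depdc1a, Map3k7 and Zfp277, the ends were shared and only the splicing between them differed, against 682 genes (55.6%). The first exon structure was not used by the rule, but in most other genes the pair rests on a share difference of a few points. All shares rest on the authors' division of fragments among overlapping transcripts, whose error the table does not give.

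The 20 pairs with separate first exons showed no common direction along the gene. The gained start lay upstream in 11 and downstream in 9, at distances of 601 (Slc16a3) to 192173 bases (Prkag2) and a median of 9382 bases. The coding sequence differed in 23 of the 28 genes, and the gained one was longer in 8 and shorter in 15. It was identical in Ctps2, Nadk, Pqlc1, Slc16a3 and Trim13 (17.9%), against 319 of 1227 genes (26%). The gained transcript as a whole was longer than the lost one in 11 and shorter in 17, against 694 longer (48.1%) and 742 shorter of 1443 genes with such a pair.

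**Figure D5:**
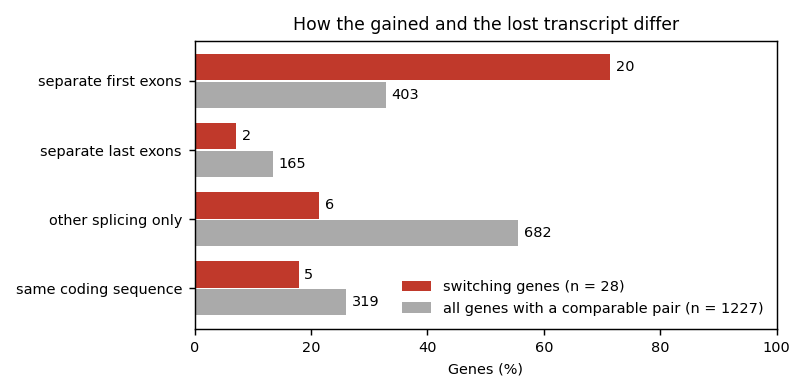
Percentage of genes (x axis) in which the gained and the lost transcript have separate first exons, separate last exons, other splicing only or the same coding sequence, for the 28 switching genes and for 1227 genes with a comparable pair. Numbers at the bars are genes; 20 of the 28 have separate first exons.

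A larger share did not always go with a higher level. In early LP the gained transcript was higher and the lost one lower than in HPC, by mean FPKM, in 20 of the 28 genes. Both were higher in Slc16a3, 2210404J11Rik, Prom1 and Ano6, and both lower in 4 genes, with Ldb1, Hdac7 and Etohi1 among them. In median LP the counts were 21 genes, 4 genes (Slc16a3, 2210404J11Rik, Slc35c1 and Ano6) and 3 genes (with Ldb1 and Hdac7 among them). The pairs were chosen for opposite share differences in these same libraries, and the levels were not counted over all genes. Nothing is therefore read from how many genes fall in each class.

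The comparison of median LP with early LP was tested over all genes. The rule reads both phases and asks the same direction of both, which leaves out genes whose phases lie far apart, so the counts of members below are partly set by the choice and nothing is read from them. The test asks whether the transcripts of a gene changed unequally between the phases. By edgeR's quasi-likelihood fit with diffSpliceDGE and its gene-level F-test, 13 of 2433 genes (0.534%) had an adjusted p under 0.05 (Benjamini-Hochberg) and were called. None of the 28 genes was called, and 8 of 28 had an unadjusted p under 0.05, against 278 of 2433 genes (11.4%). With limma, none was called on log2(FPKM + 0.1) and Mapre2 alone on log2(FPKM + 1). With the 6 LP libraries alone, edgeR's test called 15 of 2221 genes, Mapre2 among them (adjusted p = 0.0223). The count of 13 became 25 without early LP 1, 26 without early LP 2 and 8 without median LP 3. In the last of these Lmo2 was called (edgeR adjusted p = 0.00508, against 0.125 with all libraries). No label ties a library to its own mouse, so these p-values measure the spread between libraries, which may be technical.

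Mapre2 (mm10, chr18:23752333-23893861), the microtubule end-binding protein EB2, had the lowest adjusted p of the 28 in this test and was picked for this after the values were seen. NM_153058 held 50.8, 44.7 and 42.5% in early LP and 67.1, 60.9 and 75.7% in median LP, against 96.6, 96.8 and 95.2% in HPC. The 3 groups did not overlap, with median LP between early LP and HPC. The share was 21.9 points higher in median LP than in early LP (adjusted p = 0.0882 by edgeR's F-test). NM_001162942 accounted for most of the difference, with 15.5, 30.7 and 33.9% in early LP and 7.72, 9.19 and 3.03% in median LP, against 0, 0 and 1.17% in HPC. The lead shares of the phases did not overlap in 3 of 28 genes, against 10.1% of all 1798 genes. Slc35c1 was another of these, with an adjusted p of 0.371 by edgeR's F-test. In the other 25 genes the lead shares of the phases overlapped.

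Lists of related genes gave a setting for these values. Of 56 measured genes on a list of textbook isoform examples that could meet the rule, Runx1, Lmo2 and Nfatc1 met it (5.36%), with a median smaller difference of 2.11 points. Of 35 blood cell genes, Ldb1, Runx1 and Prom1 met it (8.57%), with a median of 1.79 points. Of 53 RNA processing factors none met it, with a median of 2.88 points, against 1.56% and 1.84 points over all 1798 genes. The lists were chosen with earlier results of these data known, and Runx1 counts in the isoform and the blood cell list. Nothing is therefore read from these percentages.

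RNA processing factors, the proteins that choose splice sites and ends, were compared at the gene level as context. Of 148 tested, 20 rose and 97 fell in early LP against HPC by edgeR's quasi-likelihood test at an adjusted p under 0.05, while 35.3% and 37.9% of all 12837 genes did so. In median LP against HPC 19 rose and 96 fell, against 36% and 37.7% of all genes. The median log2 change of the list was -0.31 in both comparisons, against -0.04 over all genes. Between median LP and early LP no factor was called by edgeR, 14 of 148 had an unadjusted p under 0.05, and DESeq2 called 1, while 1.48% of all genes rose and 0.997% fell. The part of these factors in the share differences was not tested.

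The labelled cell types could be checked against markers. All 10 stem and progenitor markers were lower in both LP groups than in HPC, with sums of 43.3 to 44.8 FPKM in early LP and 39.1 to 43.8 in median LP, against 311 to 382 in HPC. Kit carried most of the LP sums, at 40.4 FPKM in early LP and 39.0 in median LP, against 72.4 in HPC. The 9 promyelocyte markers were all higher in early LP, and all but Prtn3 in median LP, and summed to 26368 to 31203 FPKM in early LP and 21535 to 24898 in median LP, against 9083 to 10304 in HPC. The 9 neutrophil markers in the table summed to 45792 to 59684 FPKM in early LP and 61338 to 65293 in median LP, against 11923 to 18544 in HPC. S100a8 carried most of that sum, at 42909 FPKM in early LP and 47477 in median LP, against 8951 in HPC. Of the 9, 5 in early LP and 7 in median LP were below HPC, among them the granule genes Ltf, Camp, Ngp and Lcn2 in both. For the 8 megakaryocyte markers, all below HPC, the sums were 3.64 to 5.49 FPKM in early LP and 3.20 to 3.78 in median LP, against 78.4 to 115 in HPC. The 7 basophil and mast cell markers had 47.8 to 55.2 FPKM in early LP and 37.9 to 44.6 in median LP, against 88.3 to 103.5 in HPC, with 6 of 7 below HPC in each LP group. The 8 monocyte and dendritic markers summed to 258 to 281 FPKM in early LP and 245 to 306 in median LP, against 115 to 140 in HPC, a difference in which F13a1 had the largest part (250 FPKM in early LP and 251 in median LP, against 36.1 in HPC). Of these 8, 6 in early LP and 5 in median LP were below HPC, Irf8, Csf1r and Ly86 among them in both. Stromal and endothelial markers summed to 9.49 to 12.01 FPKM in early LP and 12.04 to 13.01 in median LP, against 138 to 184 in HPC, of which Apoe made up most (6.92 FPKM in early LP and 8.74 in median LP, against 142 in HPC). Of these 8, 5 in early LP and 4 in median LP were below HPC. The 11 erythroid markers summed to 47.0 to 56.0 FPKM in early LP and 365 to 552 FPKM in median LP, against 2138 to 2658 FPKM in HPC. All 11 were below HPC in early LP and 9 of 11 in median LP, the exceptions being Hba-a1 and Hbb-b1. Hba-a1 carried most of the median LP sum, at 405 FPKM, against 10.2 FPKM in early LP and 71.7 FPKM in HPC. The 7 B cell markers summed to 7.08 to 9.52 FPKM in early LP and 9.02 to 9.40 in median LP, against 12.9 to 15.6 in HPC, with 5 in early LP and 2 in median LP below HPC. Vpreb1 led that sum in LP and Cd79b in HPC, and Pax5 was at 0 in early LP and in HPC. The 7 T and NK cell markers summed to 241 to 267 FPKM in early LP and 170 to 213 in median LP, against 235 to 263 in HPC, with 4 below HPC in each LP group. Nkg7 made up nearly all of that sum. Cd8a was at 0 in early LP and in HPC, Cd3g in early LP and Cd3e in HPC. The LP libraries thus differ from HPC in several lineages at once, and the part of this in the transcript shares was not tested. In bulk RNA, fewer cells of a type and less RNA per cell cannot be told apart. Library totals were 21.9 to 25.8 M estimated counts, and the 28 genes had a median of 1832 estimated counts in a library.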

How the data were processed

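Total RNA of sorted marrow cells was extracted with Trizol and made into Illumina TruSeq libraries, per the labels' protocols, and the submitters' processing notes name TopHat2 2.0.6 and mm10. How fragments were divided among transcripts, and whether strand was used, is not given in the sources used here. The deposited table lists 21388 RefSeq transcripts with FPKM and estimated counts for each of the 9 libraries, per the file headers. The estimated counts as deposited are not whole numbers and total 21.9 to 25.8 M a library, and no label or header says how the authors scaled them.

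Shares were computed from FPKM by gene name, with groups from the sample titles. The members and lists were chosen with earlier results of these data known. Estimated counts were rounded and fitted with edgeR 4.0.16 (glmQLFit, TMM scaling, filterByExpr, all 9 libraries). diffSpliceDGE tested unequal transcript change, and counts summed by gene name tested gene levels, with Benjamini-Hochberg adjustment over all genes at 0.05. limma 3.58.1 and DESeq2 1.42.0 were alternatives. The diffSpliceDGE test was also run on simulated data. It recovered 74 of 100 genes changed by 1.5-fold and 100 of 100 changed by 3-fold, and 23 of its 197 calls were unchanged genes. The simulated spread was set below that of the data (a coefficient of variation of 22.7%), so these rates need not hold for the data. Transcript structures came from GENCODE M21 through its RefSeq links, and promoters from RefSeq (GRCm38.p6).

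Shares per library are given for the first 20 genes by size of the smaller difference, leaving out predicted genes, and for genes on the isoform, RNA processing and blood cell lists. Values of 6 other genes were added after they had been seen. The individual results of 2 of the 28 genes are not reported here, and both stay in all counts.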

Additional observations from a re-analysis of the deposited data

How the results depend on the processing

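The number of genes that met the rule was 46 at 20 points, 64 with a minimum of 1 FPKM and 18 with a minimum of 10 FPKM, against 28. It was 20 at 30 points, 27 with 0.1 FPKM added, 28 with the mean of library shares and 30 with shares of estimated counts, and 27 to 32 when 1 library was left out. All 28 lead differences kept their direction under every setting run. With shares of estimated counts, Prkag2 moved to -56.3 points, 2210404J11Rik to 35.6 and Etohi1 to 13.6. The 20 genes with separate first exons were also 20 when first bases over 500 bases apart were counted, a definition added after the data had been seen. Overlap of rows could not use strand, which is not a column of the table.

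Between median LP and early LP, the replicate block called 8 genes in place of 13 and none of the 28; same-numbered libraries did not deviate together (correlations of -0.21 to 0.115), so the numbers were not taken as pairs. Leaving out 1 LP library gave 8 to 26 genes, with 25 without early LP 1, 26 without early LP 2 and 8 without median LP 3. Among the 28 genes it called 0 to 1, and the 1 was Lmo2 without median LP 3. The adjusted p of Lmo2 was then 0.00508, against 0.125 with all libraries and at most 0.615 over the alternatives. Mapre2 was the 1 gene of the 28 called with limma on log2(FPKM + 1) (adjusted p = 0.00510) and with the 6 LP libraries alone (0.0223), and its highest adjusted p over the alternatives was 0.356. The cause of these changes was not tested. For RNA processing factors, leaving out 1 library gave 16 to 20 higher and 86 to 97 lower in early LP against HPC, and 18 to 20 higher and 87 to 100 lower in median LP against HPC. In median LP against early LP it gave 0 to 3 higher, the 3 without HPC 3, and 0 lower, and DESeq2 gave 1 higher. At 228 to 8033 estimated counts a gene and library, counting error is largest for Trim13.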
